A study of Mus musculus with 17 samples.

Results

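The response of the mouse liver to a single binge of ethanol was compared between chow-fed and high-fat diet (HFD)-fed mice, gene by gene, as the interaction of diet and ethanol. The interaction is the difference between HFD+1B and HFD minus the difference between 1B and chow, on the log2 scale. A positive value means that, compared with chow, ethanol on HFD gave a larger rise, a smaller fall, or a rise in place of a fall. All 17 of 17 arrays entered it, 1 for each liver sample. Male C57BL/6 mice, named C57BL/6J in the methods and C57BL/6N in the labels, formed 4 groups: chow for 3 months and a maltose gavage (chow, n = 4), chow and 1 ethanol gavage of 5 g/kg (1B, n = 4), HFD for 3 months and a maltose gavage (HFD, n = 4), and HFD for 3 months and 1 ethanol gavage of 5 g/kg (HFD+1B, n = 5). Livers were taken 9 hours after the gavage, and the controls of both diets also had a gavage. Liver cDNA carried Cy5 and a common mouse reference RNA carried Cy3 on every array, without a dye swap. Each value below is a log2 ratio of liver to reference unless it is called an interaction or a difference.

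Ethanol is oxidized in hepatocytes by alcohol dehydrogenase and CYP2E1, which shifts the cell toward a reduced redox state and slows fatty acid oxidation and gluconeogenesis. An acute binge also acts on the liver through glucocorticoids, insulin, and the stress pathways of the endoplasmic reticulum (ER). A high-fat diet changes the same insulin- and sterol-controlled genes before any ethanol is given. An interaction therefore can come from the response to ethanol, from the starting level on the diet, or from both, so the levels of all 4 groups are given for the main genes of each class.

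The median Cy5 signal of an array ranged from 63 to 158 intensity units, and 74.2% to 86.1% of spots were well above background in Cy5. All 18 hepatocyte marker genes were well above background on all 17 arrays. The arrays lay on 5 slides, of which 2 held all 4 groups. The arrays that stood apart were those of the HFD group, by their ribosomal RNA (rRNA) signal. The mean log2 ratio of the 5 rRNA probes was -2.85, -2.15, -3.81, and -3.31 on the 4 HFD arrays and between -1.16 and 1.12 on the other 13, so every HFD array lay below every other array.

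Ribosomal RNA makes up most of the RNA of a cell and is transcribed as the 45S precursor, from which the 18S and 28S RNAs are cut. The array tests 5 probes with rRNA symbols, and their sequences are shown because their signal is set beside every class below. An unnamed probe is shown with them because its interaction, 4.62, was the largest of the amplified class. Their 60-base sequences, as the probe annotation deposited with the log2 ratios gives them, are written 5′ to 3′ in lower case, with no base singled out.
Rn18s probe A_51_P338803: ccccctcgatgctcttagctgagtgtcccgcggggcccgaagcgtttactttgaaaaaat
Rn18s probe A_51_P507669: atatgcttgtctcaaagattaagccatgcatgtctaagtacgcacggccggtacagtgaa
Rn28s1 probe A_52_P1021744: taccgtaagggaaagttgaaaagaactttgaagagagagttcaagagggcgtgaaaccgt
Rn45s probe A_51_P249259: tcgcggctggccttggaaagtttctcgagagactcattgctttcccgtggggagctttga
Rn45s probe A_52_P936271: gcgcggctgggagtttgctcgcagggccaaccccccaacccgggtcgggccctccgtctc
Unnamed probe A_52_P115191: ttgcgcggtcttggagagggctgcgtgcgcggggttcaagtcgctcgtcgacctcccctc

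Of 34650 probes tested, 1426 (4.12%) had an interaction at a Benjamini-Hochberg adjusted p of 0.05 or less in limma. In 870 of them (2.51% of those tested) the interaction was positive and in 556 (1.6%) it was negative. Leaving out 1 array gave 403 (without chow 4) to 1297 (without HFD+1B 5) positive and 264 to 821 negative calls, and median centring of the arrays in place of loess gave 1652 and 162. Counted by gene, with the brightest probe of each, 851 of 19359 genes (4.4%) were called. The median interaction over all probes tested was -0.003 (log2), and 500 of the called probes had an interaction of at least 1 (log2), 373 of them positive. Of the called probes, 1351 were well above background on all 17 arrays. The call is about a difference of differences, so its standard error (SE) is large: the median SE over all probes was 0.18, and the smallest called interactions lay near 0.39.

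**Figure D1:**
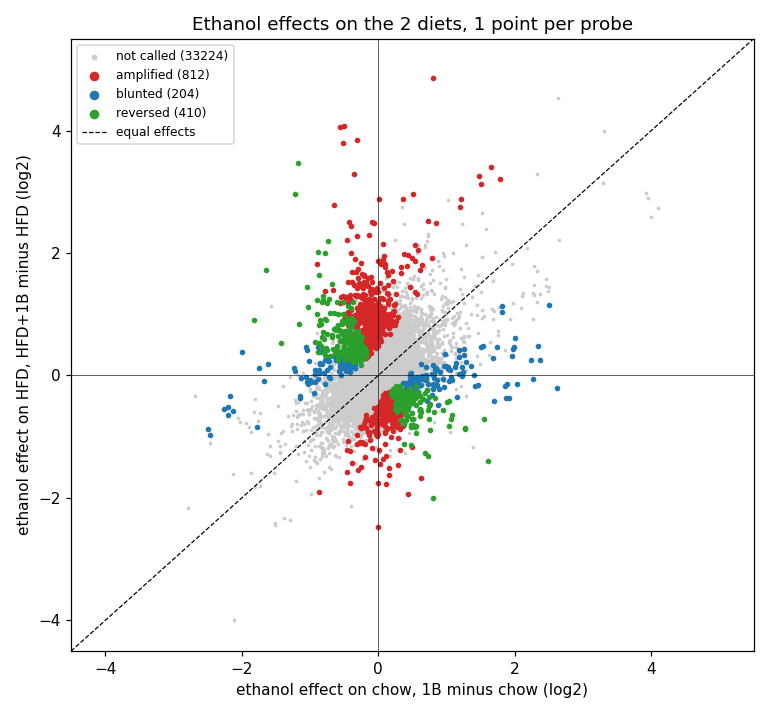
Each point is 1 probe, with the difference between 1B and chow (log2) on the x axis and the difference between HFD+1B and HFD (log2) on the y axis. Gray points were not called for the interaction, and colored points are the 812 amplified, 204 blunted, and 410 reversed probes. Amplified probes spread along the y axis, blunted probes along the x axis, and reversed probes lie at the upper left and lower right.

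Ethanol effects were called for more probes on HFD than on chow. On chow 1256 probes (3.62%) differed at an adjusted p of 0.05 or less, and on HFD 6216 (17.9%). The 2 effects share no arrays. Of the chow-called probes 48.2% were called on HFD as well, and of the HFD-called probes 9.73% were called on chow. Of the 605 probes called on both diets, 564 moved the same way, and 23 of those 564 also had a called interaction. Across all probes the 2 ethanol effects had a Pearson r of 0.28, given as a description, since probes are not independent replicates. An effect called on 1 diet alone does not show a difference between diets. The interaction was called for 20.9% of the probes called on chow and 17.9% of those called on HFD.

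The called probes were classed by the 2 ethanol effects, each counted as present at an unadjusted p of 0.05 or less. A probe was amplified if ethanol acted on HFD alone or more strongly on HFD, blunted if it acted on chow alone or more strongly on chow, and reversed if it acted on both diets in opposite directions. The classes are a description of called probes and carry no test of their own. By this rule 812 probes (56.9%) were amplified, 204 (14.3%) blunted, and 410 (28.8%) reversed. Among amplified probes 545 were higher after ethanol on HFD and 267 were lower. Among blunted probes 113 were higher and 91 lower after ethanol on chow. Among reversed probes 234 were higher on HFD and lower on chow, and 176 were lower on HFD and higher on chow. The split between classes depends on the rule. With the signs of the estimates alone, 184 probes were amplified, 67 blunted, and 1175 reversed. With effects counted at an adjusted p of 0.05, 1058 were amplified, 210 blunted, 41 reversed, and 117 in no class. Of the amplified probes, 523 of the 545 rises and 255 of the 267 falls had an effect on HFD alone by the rule used.

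The classes differed in where the 4 groups stood. For the amplified rises the mean level relative to chow was between -0.24 and 0.02 on the 1B arrays, between -0.83 and -0.48 on the HFD arrays, and between 0.04 and 0.62 on the HFD+1B arrays. The large ethanol effect on HFD thus ran from a level below chow to a level above it. The group farthest from the mean of the other 3 was HFD, as the lowest, in 65.3% of these probes, and HFD+1B, as the highest, in 34.7%. No other outcome occurred in this class, which follows from the class rule. The farthest group always lies on the diet with the larger ethanol effect, and its side follows from the direction of that effect. Only the split within an amplified class is therefore informative, and shares over all probes are no comparison for it. For the amplified falls HFD+1B, as the lowest, was the farthest group in 66.3% and HFD, as the highest, in 33.7%. For the blunted rises the level relative to chow was 0.97 to 1.06 on the 1B arrays, 0.22 to 0.55 on the HFD arrays, and 0.19 to 0.50 on the HFD+1B arrays. The HFD arrays thus stood between chow and 1B with either gavage. For the blunted falls it was -1.0 to -0.76 on 1B, -0.80 to -0.40 on HFD, and -0.53 to -0.46 on HFD+1B, so HFD and 1B overlapped. For the reversed rises HFD was the lowest and farthest group in 48.3%.

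Outside the rRNA and unnamed probes, Igfbp1 and Tat had the largest amplified rises among the named genes. Igfbp1, a secreted binding protein of insulin-like growth factors whose transcription insulin represses, was first in that order. Its values were -3.31, -3.71, and -3.10 in 3 chow mice, -3.34, -2.81, and -1.56 in 3 1B mice, -3.42 and -3.51 in 2 HFD mice, and 2.09, 0.44, 1.76, 1.79, and 0.88 in the 5 HFD+1B mice, with 4 values missing because the spots were marked as outliers. All 5 HFD+1B mice lay above all others. The interaction was 4.05 ± 0.63 (SE, adjusted p = 0.00575, limma), with a 28.9-fold higher level after ethanol on HFD and 1.74-fold on chow (unadjusted p = 0.0898). With Cy5 signals alone it was 2.89 and was not called (adjusted p = 0.0948).

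Tat, tyrosine aminotransferase, a liver enzyme induced by glucocorticoids and glucagon, had -0.47, -0.82, -0.78, and -0.65 in chow, -1.86, -1.40, -1.80, and -0.25 in 1B, -1.51, -2.09, and -2.52 in 3 HFD mice, and 1.35, -0.36, 1.2, 0.96, and 0.58 in HFD+1B. The HFD+1B mice lay above the HFD mice without overlap, and 3 of the 4 1B mice lay below all chow mice. The interaction was 3.44 ± 0.51 (adjusted p = 0.00296, limma). Sds, serine dehydratase, which turns serine into pyruvate, had an interaction of 2.46 ± 0.51 (adjusted p = 0.0152), with a 7.84-fold higher level after ethanol on HFD. Got1, the cytosolic aspartate aminotransferase, was higher after ethanol on both diets, by 1.22 on chow and 2.88 on HFD, with an interaction of 1.66 ± 0.40 (adjusted p = 0.0287). These are the 4 genes called among 22 of the list of gluconeogenesis and glucocorticoid response, all positive and all amplified, against 2.68% positive and 1.72% negative over all genes. The median interaction of the list was 0.40, and that of all genes was -0.002.

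The Igfbp1 promoter is shown because that gene had the largest gene interaction among those named and its insulin response element is a textbook one. The 250 bases before its start in the RefSeq annotation of GRCm38.p6, plus strand, chr11:7197537-7197786, hold 1 match, in capitals, to the 8 letters CAAAACAA, the core of that element, 108 bases before the start.
Igfbp1 promoter: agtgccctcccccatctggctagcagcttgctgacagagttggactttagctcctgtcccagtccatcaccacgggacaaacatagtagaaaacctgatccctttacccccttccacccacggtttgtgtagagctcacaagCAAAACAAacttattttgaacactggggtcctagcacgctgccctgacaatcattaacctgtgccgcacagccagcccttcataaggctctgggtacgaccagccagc
On either strand, these letters were in the 250 bases before 727 of 32851 starts (2.21%) and in 2 of the 19 genes of the list with a promoter in that table, Igfbp1 and Irs2. A match is a run of letters and not a measured binding site.

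The other amplified rises held stress and growth regulators. Ddit4, an inhibitor of the mTORC1 kinase that stress and glucocorticoids induce, had -1.95, -0.94, -2.41, and -2.40 in the chow group, -2.46, -2.02, -2.28, and -1.28 with 1B, -1.72, -2.15, -2.37, and -2.29 on HFD alone, and 0.47, 0.13, 0.61, -0.12, and 0.81 on HFD+1B. The 12 mice of the first 3 groups overlapped, and the 5 HFD+1B mice lay above all of them. The interaction was 2.60 ± 0.41 (adjusted p = 0.00375, limma). Btg2, an antiproliferative early response gene, had the same layout, with -2.86 to -1.64 in the first 3 groups and -0.70 to 1.64 in HFD+1B, and an interaction of 2.43 ± 0.56 (adjusted p = 0.0225). It lost the call without HFD 4, at an adjusted p of 0.0528. Mapk6, the atypical kinase ERK3, had another layout: -0.46 to 0.07 in the chow group, -0.98 to -0.03 with 1B, -2.65 to -1.80 on HFD alone, and -1.02 to 0.87 on HFD+1B. Here HFD was the group apart, and the interaction was 2.67 ± 0.41 (adjusted p = 0.00296). The dimmer Mapk6 probes gave 1.32, 0.20, and 0.04. Apob, the protein of very-low-density lipoproteins and a hepatocyte marker, also was lowest in HFD, at -3.75 to -1.53, with an interaction of 2.59 ± 0.67 (adjusted p = 0.0394). The other Apob probes gave 2.94, 1.37, 0.89, and 2.07, of which 2 were called. The Apob call was lost in 12 of 17 fits that left out an array.

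In the list of the integrated stress response 8 of 38 genes (21.1%) were called, 7 positive and 1 negative, against 4.4% of all genes called, 2.68% positive and 1.72% negative. The positive ones were Ddit4, Cebpb, Chac1 (1.81, a glutathione-degrading enzyme), Gdf15 (1.26, a stress hormone), Slc3a2 (0.94, an amino acid transporter subunit), Vldlr (0.85), and Eif4ebp1 (0.65). The negative one was Atf5, at -1.17, a transcription factor of the same pathway that differed after ethanol by 1.08 on chow and by -0.08 on HFD (unadjusted p = 0.564). The list's median interaction was -0.04, near that of all genes. Of 35 immediate early genes, transcription factors and RNA regulators switched on soon after a stimulus, 5 (14.3%) were called and all were positive: Btg2, Zfp36, Jund (1.23), Klf6 (1.17), and Nr4a1 (0.73), with a list median of 0.44. After ethanol 20 of the 35 were higher on HFD and 5 on chow at an adjusted p of 0.05, and of all genes 2124 (11%) were higher on HFD and 404 (2.09%) on chow. Of 57 genes of fibrosis and stellate cell activation 4 (7.02%) were called, all positive, against 2.68% positive of all genes: Agt (1.32), Klf6, Myh9 (0.91), and Myl9 (0.69). Those 4 are the precursor of angiotensin, a transcription factor, and the heavy chain and a light chain of myosin. Agt lost the call in 13 of 17 fits that left out an array. Of 41 collagen genes none had a called positive interaction, and Col27a1 had a negative one, at -0.78, which lost the call in 14 of those fits. That share, 2.44%, was below the 4.4% of all genes. After ethanol 7 of the 41 collagens were higher and 2 lower on HFD, and 0 differed on chow, at an adjusted p of 0.05 (limma). Of the 57 fibrosis genes 21 were higher and 1 lower on HFD, and 2 were higher and 1 lower on chow. Of all genes 8.39% were lower on HFD and 2.05% on chow.

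**Figure D2:**
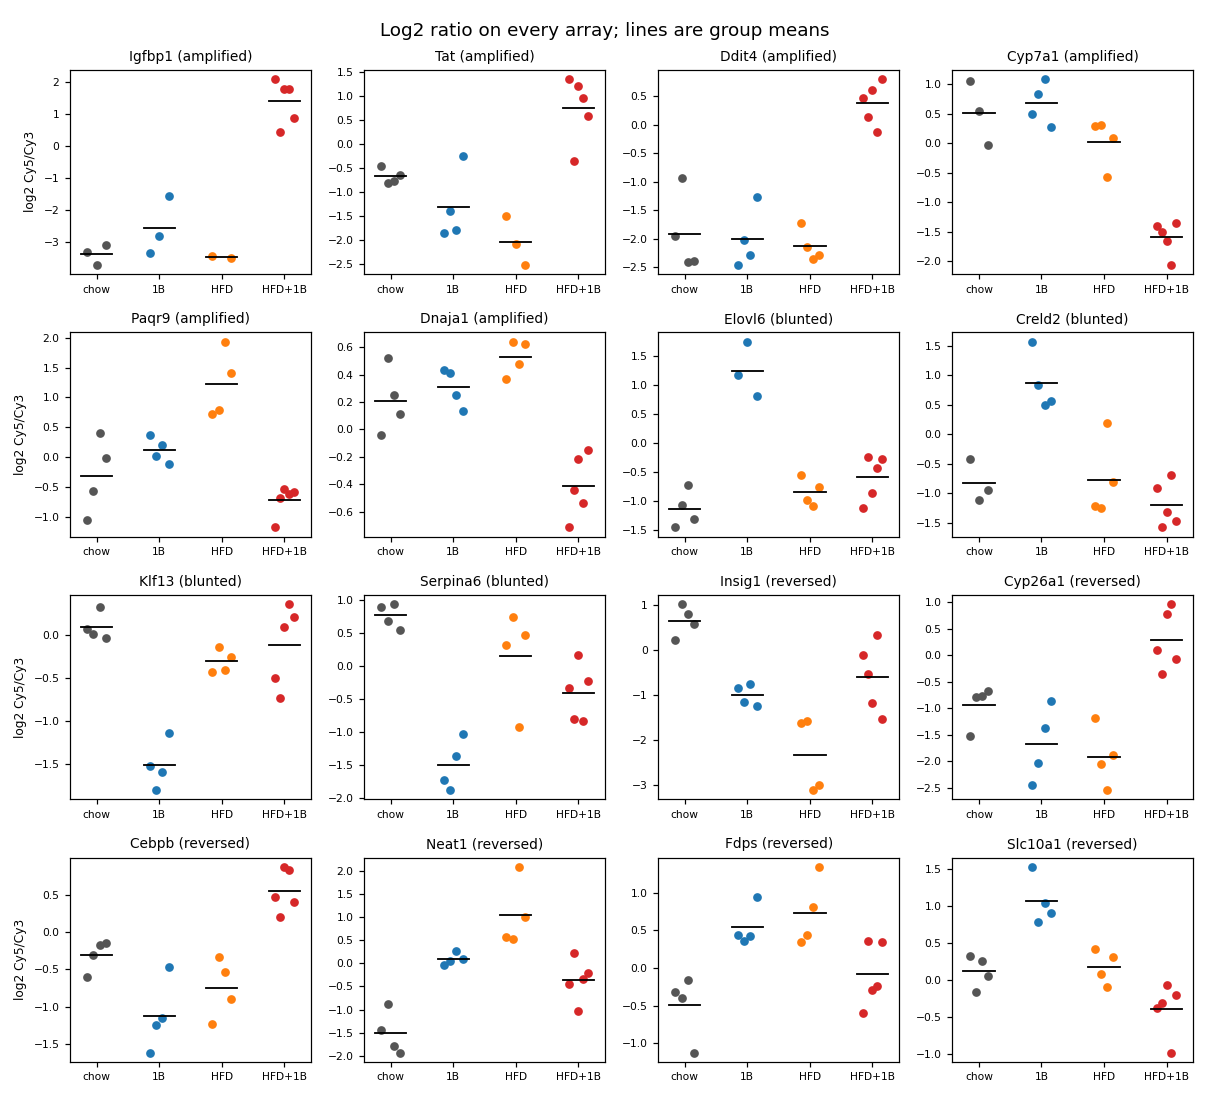
The log2 ratio of liver to reference (y axis) is plotted for every array of the 4 groups (x axis) for 16 genes, with lines at the group means. Igfbp1, Ddit4, and Cyp7a1 separate the 5 HFD+1B arrays from the rest, Elovl6, Creld2, and Klf13 separate the 1B arrays, and Insig1 shows ethanol moving the level down on chow and up on HFD.

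Amplified falls included bile acid genes. Cyp7a1, the rate-limiting enzyme of bile acid synthesis, had 1.05, 0.54, and -0.04 in 3 chow mice, 0.50, 0.83, 1.09, and 0.28 with 1B, 0.29, 0.30, -0.57, and 0.09 on HFD alone, and -1.40, -1.50, -1.66, -2.06, and -1.35 on HFD+1B. The 5 HFD+1B mice lay below all others. The interaction was -1.77 ± 0.35 (adjusted p = 0.0125, limma), from a 3.07-fold lower level after ethanol on HFD and a difference of 0.16 on chow (unadjusted p = 0.558). A second Cyp7a1 probe gave -2.47 (adjusted p = 0.00183). Of 26 genes of bile acid synthesis and transport 3 were called and all were negative, against 4.4% of all genes called and 1.72% negative. These 3 were Cyp7a1, Slc10a1, and Nr1h4 (-0.87), the bile acid receptor FXR. The list's median interaction was -0.01.

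Paqr9, a member of the progestin and adipoQ receptor family, had -1.05 to 0.40 in the chow group, -0.12 to 0.38 with 1B, 0.73 to 1.94 on HFD alone, and -1.18 to -0.54 on HFD+1B. The HFD mice lay above all others, with an interaction of -2.37 ± 0.38 (adjusted p = 0.00409, limma). Arrdc3, an arrestin that limits beta-adrenergic receptors, had the same layout, at 0.87 to 1.65 on HFD alone and -1.43 to -0.28 on HFD+1B, with an interaction of -1.89 ± 0.35 (adjusted p = 0.00933). A dimmer Arrdc3 probe gave -0.32 (adjusted p = 0.411). Inhbe, the beta-E subunit of activins made by hepatocytes, had an interaction of -2.31 ± 0.58 (adjusted p = 0.0346), but HFD+1B values spread from -2.60 to 0.23 and the call was lost in 9 of 17 fits that left out an array. Ache, acetylcholinesterase, was higher in HFD (-0.43 to 0.68) than in chow (-1.53 to -0.95), overlapped 1B (-1.23 to -0.20), and was at -1.83 to -0.63 in HFD+1B, an interaction of -1.75 ± 0.38 (adjusted p = 0.0174).

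Blunted rises included lipogenic and ER genes that were higher after ethanol on chow. Elovl6, an elongase of long-chain fatty acids under SREBP-1 control, had -1.45, -1.06, -0.73, and -1.29 in chow, 1.17, 1.75, and 0.82 in 3 1B mice, -0.54, -0.97, -1.09, and -0.76 on HFD alone, and -1.12, -0.24, -0.85, -0.43, and -0.27 on HFD+1B. The 3 1B mice lay above the other 13, which overlapped. The ethanol effect was 2.38 on chow (5.19-fold) and 0.26 on HFD (unadjusted p = 0.237), and the interaction was -2.12 ± 0.32 (adjusted p = 0.00296, limma). Pklr, the liver pyruvate kinase, was 5.07-fold higher after ethanol on chow and 1.4-fold on HFD, an interaction of -1.86 ± 0.46 (adjusted p = 0.0308), which lost the call in 7 of 17 fits that left out an array. Agpat2, an enzyme of triglyceride synthesis, was negative as well, at -0.92, but as an amplified fall, with 0.19 on chow and -0.73 on HFD. Of 25 lipogenesis genes 4 (16%) were called, these 3 among them, against 4.4% of all genes, with a list median of -0.10.

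Creld2, a secreted protein induced by ER stress, had -0.41, -1.12, and -0.94 in 3 chow mice, 1.57, 0.83, 0.50, and 0.56 with 1B, -1.22, -1.24, 0.19, and -0.81 on HFD alone, and -0.91, -1.58, -1.32, -0.68, and -1.48 on HFD+1B. The 4 1B mice lay above all others, and HFD and HFD+1B overlapped. The interaction was -2.11 ± 0.44 (adjusted p = 0.0153, limma). Syvn1, the ubiquitin ligase of ER-associated degradation, had an interaction of -1.18 ± 0.30 (adjusted p = 0.0357), which lost the call in 10 of 17 fits that left out an array, and a second Syvn1 probe gave -0.52 (adjusted p = 0.321). Sel1l, its partner, had one of -0.98, as a reversed fall. These 3 of 32 genes (9.38%) of ER chaperones and the unfolded protein response were called, all negative. Of all genes 4.4% were called, and 1.72% were called negative. The list's median interaction was -0.56, from a median ethanol effect of 0.44 on chow and -0.08 on HFD. Of all lists with 10 or more genes it had the lowest median. At an adjusted p of 0.05, 5 genes of the list were higher after ethanol on chow and none lower, and 5 were higher and 1 lower on HFD. Of all genes 2.09% were higher and 2.05% lower on chow, and 11% were higher and 8.39% lower on HFD.

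Pnpla7, a lysophospholipase, had -1.07, -1.30, -0.45, and -0.74 in the chow group, 0.51, 0.35, 0.48, and 0.78 with 1B, -0.16, -0.51, 0.42, and 0.11 on HFD alone, and -0.32, -0.14, -0.14, -0.24, and -0.22 on HFD+1B. The 1B mice lay above the chow mice, and HFD and HFD+1B mice overlapped, with a difference of -0.18 (unadjusted p = 0.313), for an interaction of -1.60 ± 0.25 (adjusted p = 0.00296, limma). Celsr1, a cadherin of planar cell polarity, had an interaction of -2.03 ± 0.52 (adjusted p = 0.0373) and Fam187b one of -1.54 ± 0.36 (adjusted p = 0.0257). Both lost the call without some arrays, Celsr1 in 10 and Fam187b in 4 of the 17 fits.

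Blunted falls were lower after ethanol on chow. Klf13, a Krüppel-like transcription factor, had 0.07, 0.01, 0.33, and -0.04 in the chow group, -1.53, -1.80, -1.60, and -1.14 with 1B, -0.43, -0.13, -0.41, and -0.26 on HFD alone, and -0.50, -0.73, 0.09, 0.36, and 0.21 on HFD+1B. The 1B mice lay below all others. The interaction was 1.81 ± 0.27 (adjusted p = 0.00291, limma), from a 3.06-fold fall on chow and a difference of 0.19 on HFD. A dimmer Klf13 probe gave 0.58 (adjusted p = 0.0798). Serpina6, corticosteroid-binding globulin, the plasma carrier of glucocorticoids, fell 4.80-fold on chow, from 0.54 to 0.93 in chow mice to -1.88 to -1.03 in 1B. On HFD it was -0.93 to 0.74 and with ethanol -0.83 to 0.17, which overlap, and the interaction was 1.71 ± 0.40 (adjusted p = 0.0253). Clec2d, a C-type lectin, was 0.80 to 1.18 in the chow group, -1.31 to -0.32 with 1B, -2.24 to -1.18 on HFD alone, and -2.20 to -0.60 on HFD+1B. All chow mice lay above all others, for an interaction of 1.86 ± 0.43 (adjusted p = 0.0226). The call was lost in 4 of 17 fits that left out an array for Serpina6 and in 2 for Clec2d.

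Among 49 xenobiotic cytochrome P450 and conjugation enzymes 3 (6.12%) were called, near the 4.4% of all genes, and these 3 were blunted. Cyp2b13 was 4.73-fold higher after ethanol on chow, with an interaction of -1.99 ± 0.43 (adjusted p = 0.0187). Cyp2a5 (1.69 ± 0.46, adjusted p = 0.0477) and Cyp2a4 (1.62, adjusted p = 0.049) differed by -2.20 and -2.50 on chow and by -0.51 and -0.88 on HFD. Cyp2a4 and Cyp2a5 are near-identical copies whose probes can share transcripts, and a second Cyp2b13 probe gave 0.59 (adjusted p = 0.193), so these 3 are uncertain. Without single arrays the call was lost in 13 of 17 fits for Cyp2a5 and in 2 for Cyp2b13.

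Reversed rises included a gene of sterol sensing. Insig1, the ER protein that holds the SREBP complex back when sterols are ample, had 0.21, 1.01, 0.79, and 0.56 in the chow group, -0.85, -1.16, -0.76, and -1.26 with 1B, -1.64, -1.60, -3.12, and -3.02 on HFD alone, and -0.13, -0.55, -1.19, 0.33, and -1.55 on HFD+1B. It fell by 1.65 on chow and rose by 1.73 on HFD, each without overlap, and the interaction was 3.38 ± 0.52 (adjusted p = 0.00296, limma). A second Insig1 probe gave 2.72 (adjusted p = 0.00152). Fdps, farnesyl diphosphate synthase of the sterol pathway, was reversed the other way, with effects of 1.04 on chow and -0.82 on HFD. Its interaction was -1.85 ± 0.34 (adjusted p = 0.00933), but a second Fdps probe of similar brightness gave -0.17 (adjusted p = 0.748). Of 25 genes of the cholesterol list 3 (12%) were called, Insig1 and Fdps among them, against 4.4% of all genes. The list's median interaction was -0.05.

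Cebpb, a transcription factor of the acute phase and of gluconeogenesis, had -0.60, -0.30, -0.18, and -0.15 in the chow group, -1.61, -1.25, -1.15, and -0.47 with 1B, -1.23, -0.34, -0.54, and -0.89 on HFD alone, and 0.46, 0.20, 0.87, 0.83, and 0.39 on HFD+1B. The HFD+1B mice lay above all others, and 3 of 4 1B mice lay below all chow mice (effect on chow -0.81, adjusted p = 0.0506). The interaction was 2.11 ± 0.31 (adjusted p = 0.0024, limma), and a second probe gave 1.66. Zfp36, which speeds the decay of inflammatory mRNAs, had effects of -0.90 on chow (adjusted p = 0.0756) and 1.23 on HFD, with an interaction of 2.14 ± 0.37 (adjusted p = 0.00625), and a dim second probe gave 0.68 (adjusted p = 0.167). Cyp26a1, the hydroxylase that clears retinoic acid, had effects of -0.74 on chow (adjusted p = 0.356) and 2.19 on HFD, with an interaction of 2.93 ± 0.48 (adjusted p = 0.00428). Rbm47, an RNA-binding protein, was 0.37 to 0.46 in the chow group, -0.61 to -0.02 with 1B, -3.27 to -1.57 on HFD alone, and -1.02 to 0.24 on HFD+1B, with an interaction of 2.78 ± 0.40 (adjusted p = 0.0024), and a second probe gave 1.23 (adjusted p = 0.101). Mapk7, the kinase ERK5, had the same order of groups and an interaction of 2.18 ± 0.43 (adjusted p = 0.0117), and a dim second probe gave -0.23. Among 42 genes of the acute phase and STAT3 response, 2 were called, Cebpb and Pim1 (1.02, a kinase whose call was lost in 14 of 17 fits without an array), which is 4.76% of the list against 4.4% of all genes. After ethanol 24 of the 42 were higher on HFD and 13 on chow, against 11% and 2.09% of all genes.

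Reversed falls were led by Neat1, the long noncoding RNA that builds nuclear paraspeckles. It had -1.45, -0.88, -1.79, and -1.93 in the chow group, -0.03, 0.05, 0.28, and 0.10 with 1B, 0.56, 0.52, 2.10, and 1.00 on HFD alone, and -0.44, 0.23, -1.03, -0.34, and -0.21 on HFD+1B. It rose by 1.61 on chow and fell by 1.40 on HFD, each without overlap, and the interaction was -3.02 ± 0.42 (adjusted p = 0.00192, limma). It was the 1 called gene of 9 nuclear long noncoding RNAs (11.1%, against 4.4% of all genes). Slc10a1, the hepatocyte uptake carrier for bile acids, had effects of 0.95 on chow and -0.57 on HFD, with an interaction of -1.52 ± 0.26 (adjusted p = 0.00573). Eif4ebp3, a repressor of cap-dependent translation, had effects of 1.28 on chow and -0.87 on HFD (adjusted p = 0.0517), with an interaction of -2.15 ± 0.43 (adjusted p = 0.0131), and its second probe gave -2.12. Selenbp2, a selenium-binding liver protein, had effects of 0.68 on chow (adjusted p = 0.219) and -1.26 on HFD, with an interaction of -1.94 ± 0.36 (adjusted p = 0.00971).

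Several lists held no called interaction, against 4.4% of all genes. None of 80 subunits of oxidative phosphorylation, 39 of the proteasome, 32 genes of the cell cycle, 28 neutrophil markers, 22 macrophage and Kupffer cell markers, and 14 markers of quiescent stellate cells was called. The markers of T and NK cells, B and plasma cells, erythroid cells, pancreatic acinar cells, and adipocytes had no call either. At a share of 4.4%, lists as short as these marker lists can easily hold none, so this says little about those cell types. The mean of the neutrophil markers relative to chow was 0.03 to 0.26 with 1B, -0.01 to 0.28 on HFD alone, and 0.28 to 0.43 on HFD+1B, and their median interaction was 0.05. The mean of the hepatocyte markers was -0.41 to -0.17 on HFD alone and -0.28 to 0.20 on HFD+1B, which overlap, with Tat and Apob as the called genes of 18. The cholangiocyte markers were at 0.12 to 0.66 in HFD+1B and at -0.20 to 0.17 on all other arrays, with Krt7 as the 1 called gene of 10. Its second probe gave -0.07, its value turned to -0.09 with Cy5 signals alone, and its call was lost in 10 of 17 fits that left out an array. The part of these cell types in the interactions was not tested. In bulk liver, fewer cells of a type and less RNA per cell cannot be told apart.

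The rRNA probes themselves fell among the reversed and amplified rises. For Rn18s (A_51_P338803) the values were 1.35, 0.73, 0.74, and 1.21 in the chow group, -0.94, 0.36, 0.30, and -0.39 with 1B, -2.53, -2.11, -3.94, and -3.51 on HFD alone, and 1.00, 0.46, 0.51, 1.1, and -0.77 on HFD+1B. The HFD arrays lay below the rest, and the 1B arrays lay below the chow arrays (effect on chow -1.17, adjusted p = 0.154). The interaction was 4.65 ± 0.57 (adjusted p = 0.00152, limma), and 4.18 ± 0.53 for the second Rn18s probe. For Rn45s it was 4.58 ± 0.65 and 4.15 ± 0.69, and for Rn28s1 2.53 ± 0.40 (adjusted p = 0.00376). The unnamed probe A_52_P115191, with 68.3% G and C bases, had 4.62 ± 0.61. No spot of the 5 rRNA probes was saturated in either channel. The difference was in the liver channel: the mean log2 Cy5 signal of the 5 probes was 9.16 to 10.57 on HFD arrays and 12.11 to 14.99 on the others, while the Cy3 signal of the reference was 13.24 to 14.17 and 13.92 to 15.18. The interaction of the mean rRNA signal was 4.01. On the slide with chow 1, 1B 1, HFD 1, and HFD+1B 1 it was 4.95, and on the slide with chow 2, 1B 2, HFD 2, and HFD+1B 5 it was 1.45.

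**Figure D3:**
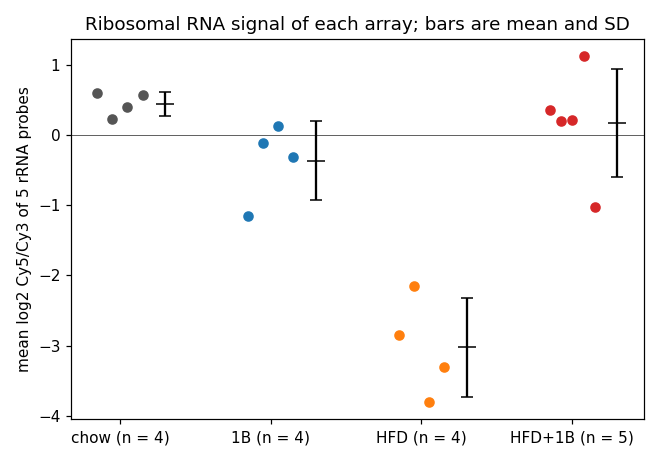
The mean log2 ratio of liver to reference of the 5 rRNA probes (y axis) is plotted for each of the 17 arrays by group (x axis), with the group mean and SD beside the points. The 4 HFD arrays lie between -3.81 and -2.15, and the other 13 between -1.16 and 1.12.

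Genes of other small RNAs, of rRNA processing, and of ribosomal proteins were set beside these probes. Of 15 small nuclear and nucleolar RNA genes 2 (13.3%) were called, both positive, against 4.4% of all genes called and 2.68% positive. Terc, the telomerase RNA, had -0.07 to 0.69 in the chow group, -0.79 to 0.16 with 1B, -0.98 to -0.58 on HFD alone, and 0.17 to 0.75 on HFD+1B, with an interaction of 1.81 ± 0.27 (adjusted p = 0.00284, limma), but a dim second probe gave -0.43. Rmrp, the RNA of the ribonuclease that cuts the rRNA precursor, had an interaction of 1.76 ± 0.34 (adjusted p = 0.0114). Of 36 protein genes of ribosome biogenesis 3 (8.33%) were called and all were negative, against 1.72% negative of all genes. Utp20 and Bop1, factors of small and large subunit assembly, had interactions of -1.22, with 0.02 on a second probe, and -0.50, and Nop2, an rRNA methyltransferase, one of -0.97, which turned to 0.22 on the second of the slides above. Among 82 cytosolic ribosomal proteins Rpl21 (1.04) and Rpl3 (-0.59) were called, in opposite directions, with a list median of -0.10. That share, 2.44%, was below the 4.4% of all genes. Leaving out an array ended the call of Nop2 in 11 of 17 fits, of Rpl21 in 5, and of Rpl3 in 3.

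The rRNA signal was then set beside the classes array by array. The HFD arrays form a cluster of their own, so no correlation over all arrays is given. Within groups the same order was seen: among the 4 HFD arrays the level of the amplified rises went from -0.83 on the array with the lowest rRNA signal to -0.48 on the one with the highest, and among the 5 HFD+1B arrays from 0.04 to 0.62. To put this on all probes, the slope of each probe on the rRNA signal was fitted within groups, as a covariate beside the 4 group means. This slope uses the differences between mice of 1 group, which do not enter the group means that give the interaction. Its sign was that of the interaction in 23943 of 34650 probes (69.1%). Among the 1426 called probes it was the same in 1309 (91.8%), with 93.4% of amplified rises, 92.1% of amplified falls, 93.6% of reversed rises, 92% of reversed falls, 83.2% of blunted rises, and 86.8% of blunted falls. The median absolute interaction was 0.19 over all probes and 0.85 over called ones, so signs are less certain among all probes and the shares are not like for like. The slope itself was called for 202 probes (0.583%) at an adjusted p of 0.05 and for 90 of the called probes, 87 of them with a positive interaction. The 5 rRNA probes, whose mean is the signal itself, are among the 1309, the 202, and the 90. At an unadjusted p of 0.05 it was 14.1% of all probes, 57.4% of amplified rises, and 17.6% of amplified falls.

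**Figure D4:**
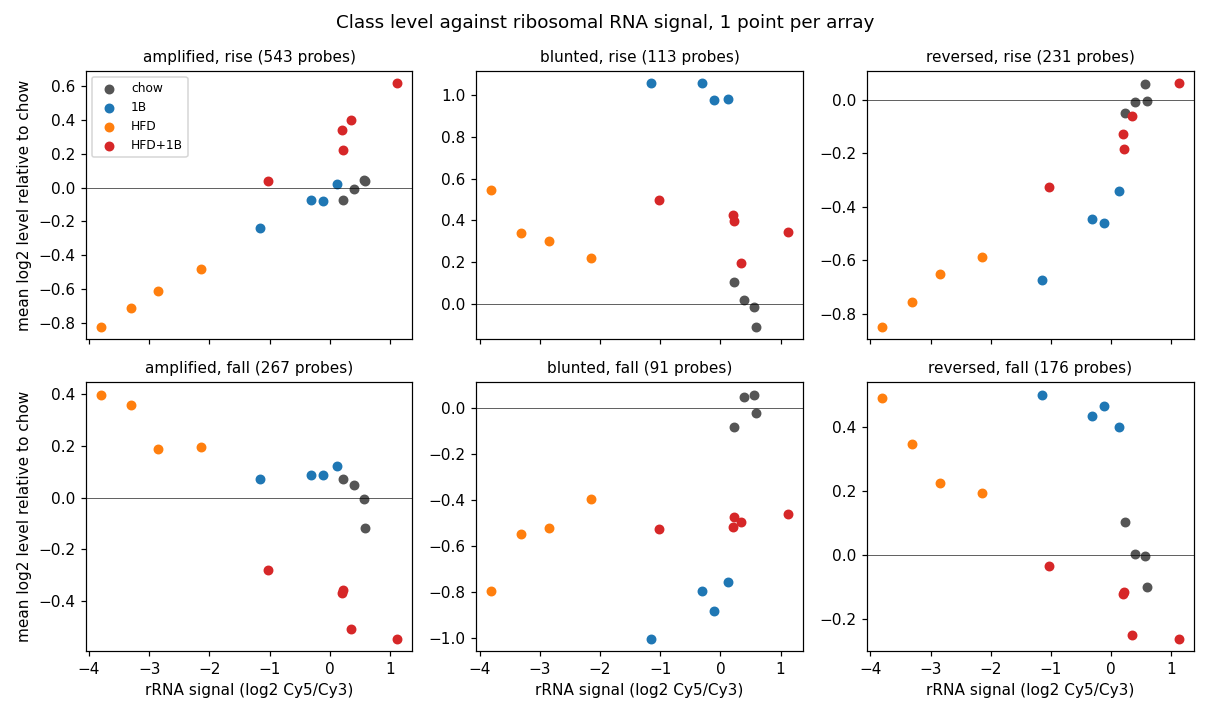
For each class and direction, the mean log2 level of its probes relative to the chow mean (y axis) is plotted against the rRNA signal of the array (x axis), with 1 point per array colored by group. The rRNA probes are left out of the levels. The amplified rises follow the rRNA signal within HFD and within HFD+1B, while the blunted rises set the 4 1B arrays, at 0.97 to 1.06, apart from all others.

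With the rRNA signal as a covariate, no probe had an interaction at an adjusted p of 0.05, and 1556 probes had an unadjusted p of 0.05 or less, 128 of them among the 1426. The group explains 86.4% of the variance of the rRNA signal, so the rRNA signal and the group can hardly be told apart, and the covariate widened the SE of the interaction 2.11-fold. The estimates moved unequally. The median interaction of the amplified rises, in the direction first called, went from 0.94 to 0.05, with a change of sign in 45.5% of them. For the blunted rises it went from 0.84 to 0.48, with a change of sign in 13.3%, and for the amplified falls from 0.72 to 0.31. The part of the rRNA signal in the interactions was not tested beyond this.

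Genes differed within classes. The estimate of Ddit4 was 3.16 ± 0.89 with the covariate and 2.60 ± 0.41 without, and estimates of similar or larger size were left for Klf13 (1.73 ± 0.60), Elovl6 (-2.02 ± 0.71), Cyp7a1 (-1.95 ± 0.74), and Pklr (-2.88 ± 0.95). Igfbp1 was at 2.42 ± 1.11 and Tat at 2.23 ± 1.05. The estimates of Mapk6 (-0.23 ± 0.38), Rbm47 (0.23 ± 0.51), Insig1 (0.56 ± 0.82), Apob (-0.95 ± 0.97), Mapk7 (-0.19 ± 0.66), and Clec2d (-0.48 ± 0.67) were near 0 or on the other side of it. Within groups Mapk6 was higher by 0.72 for each log2 unit of rRNA signal (adjusted p = 0.00112, limma) and Rbm47 by 0.64 (adjusted p = 0.0236), and for Ddit4 the slope was -0.14 (unadjusted p = 0.484). None of the interactions in this paragraph with the covariate passed adjustment (adjusted p = 0.999 for each).

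**Figure D5:**
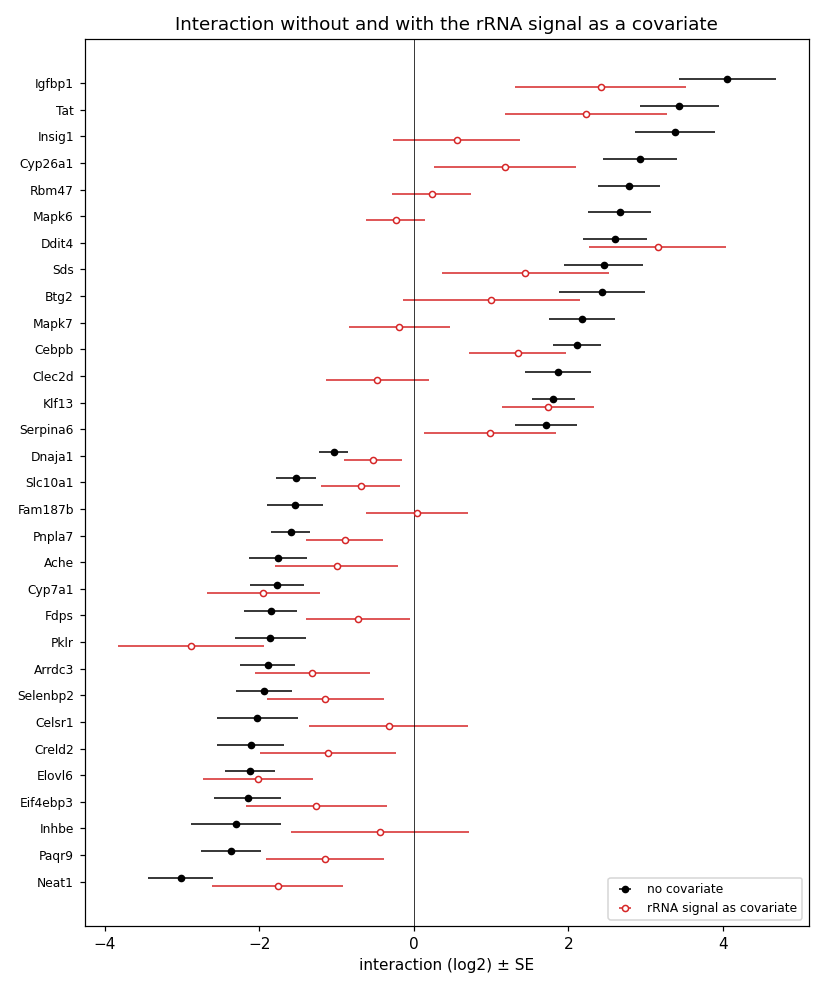
The interaction (log2, x axis) with its SE is plotted for the genes named by class and those of the array plot (y axis), without a covariate in black and with the rRNA signal of the array as a covariate in red. Ddit4, Klf13, Elovl6, and Cyp7a1 stay in place with wider bars, and Mapk6, Rbm47, Insig1, and Mapk7 move to the neighborhood of 0.

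Called probes shared features that the test did not use. Their median Cy5 signal was 295 intensity units against 138 for all probes tested, and for the amplified rises it was 379. Probes rich in G and C were more often positive: among the 6873 probes with 48.3% to 86.7% G and C, 4.32% had a positive and 1.35% a negative interaction, against 1.14% and 1.12% among the 7479 with 35% or less. The median interaction went from -0.03 in the latter to 0.08 in the former. Probes of a gene often differed. Of 751 genes with several tested probes and at least 1 called, 54 were called on every probe with the same sign, 266 had a probe of the opposite sign, and 3 had called probes in both directions. Of the 545 amplified rises, 57 probes had no gene symbol.

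On unlogged group means, 0 of the 1426 called probes changed the sign of the interaction, against 2.93% of all probes tested. In 1175 of the called probes the 2 ethanol effects had opposite signs, so for them this check could hardly fail. Within the slide of chow 1, 1B 1, HFD 1, and HFD+1B 1, 1354 of 1355 called probes with values had the sign of the full fit, against 79% of all probes, and within the slide of chow 2, 1B 2, HFD 2, and HFD+1B 5, 1336 of 1400 did, against 63.2%. These arrays are part of the full fit. How the arrays were scaled changed the balance of signs. Of the called probes 61% were positive with loess, 91.1% (1652 of 1814) with median centring, which moved the median of all probes to 0.09, and 86.1% (273 of 317) with Cy5 signals alone. With Cy5 signals alone 32 of 61 genes and probes examined lost the call, among them Igfbp1, Klf13 (adjusted p = 0.125), Creld2 (0.143), Pnpla7 (0.0997), Rbm47 (0.0528), Btg2 (0.0568), Serpina6 (0.179), Pklr (0.121), Inhbe (0.0555), Apob (0.0817), and Eif4ebp3 (0.101). With the log2 ratios as deposited, 66.6% of 1454 were positive.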

How the data were processed

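Liver RNA of 17 mice was measured on 2-colour Agilent arrays. The authors deposited scanner intensity values (Feature Extraction 11.5.1.1), with log10 ratios of the processed signals, and a table of log2 ratios. For the 40929 probes with 1 spot, these log2 ratios differed from those of the processed signals by at most 2.7e-06. Here median Cy5 and Cy3 intensities were corrected by normexp (offset 50) and loess in limma 3.58.1 (R 4.3.3). Of 45018 spots, controls and outlier spots were left out, spots of a probe were averaged, and probes well above background in Cy5 on at least 4 arrays with a value in every group were kept (34650 probes). One limma fit over 4 groups (13 residual degrees of freedom) gave the interaction and both ethanol effects, two-sided, with Benjamini-Hochberg adjustment over all probes. The fit was tested on simulated data. P-values measure the spread between these samples.

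Named genes were the 4 largest called interactions of each class and direction measured on all 17 arrays, the rRNA probes, and up to 2 called genes of each list described. Some genes that met it are not reported here. Genes named outside this rule were the other called genes of small lists, chosen after their values were seen. Members and gene lists were chosen with earlier results of these data known. Alternatives changed background, scaling, filter, outliers, blocks, weights, moderation, covariate, threshold, class rule, and arrays.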

Additional observations from a re-analysis of the deposited data

Results flagged for a closer look

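The interaction is itself a test of whether the ethanol effect differed between the diets, so each called interaction was flagged: 870 positive and 556 negative probes, and the genes here. Among amplified rises these were Igfbp1 (4.05), Tat (3.44), Mapk6 (2.67), Ddit4 (2.60), Apob (2.59), Sds (2.46), Btg2 (2.43), Rmrp (1.76), Agt (1.32), and Klf6 (1.17). Among amplified falls they were Paqr9 (-2.37), Inhbe (-2.31), Arrdc3 (-1.89), Cyp7a1 (-1.77), Ache (-1.75), and Nop2 (-0.97). Among blunted rises they were Elovl6 (-2.12), Creld2 (-2.11), Celsr1 (-2.03), Cyp2b13 (-1.99), Pklr (-1.86), Pnpla7 (-1.60), Fam187b (-1.54), and Syvn1 (-1.18). Among blunted falls they were Clec2d (1.86), Klf13 (1.81), Serpina6 (1.71), and Cyp2a5 (1.69). Among reversed rises they were Insig1 (3.38), Cyp26a1 (2.93), Rbm47 (2.78), Mapk7 (2.18), Zfp36 (2.14), Cebpb (2.11), Terc (1.81), and Pim1 (1.02). Among reversed falls they were Neat1 (-3.02), Eif4ebp3 (-2.15), Selenbp2 (-1.94), Fdps (-1.85), Slc10a1 (-1.52), and Utp20 (-1.22). The rRNA probes gave 4.65 and 4.18 for Rn18s, 4.58 and 4.15 for Rn45s, and 2.53 for Rn28s1.

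In 11 of 182 groups of values a single array lay far from the rest of its group, and chance gives about 1 in 20. These were Sds in HFD+1B 2 (-0.17), Agt in chow 2 (-0.81) and 1B 4 (-0.26), Clec2d in chow 3 (0.80) and HFD 3 (-2.24), Mapk7 in chow 1 (0.40), Fdps in 1B 4 (0.94), Fam187b in HFD 3 (0.18), Arrdc3 in HFD+1B 1 (-1.43), Cyp26a1 in chow 1 (-1.53), and Paqr9 in HFD+1B 1 (-1.18). The mouse HFD 3 also had the lowest rRNA signal of all arrays, -3.81.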

How the results depend on the processing

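The called probes that were tested again (1351 to 1426) kept their sign in each fit without 1 array and under every scaling, filter, and block except Cy5 signals alone (96.5%) and the rRNA covariates (72.8% and 69.3%). Their number moved. Leaving out 1 array gave 403 (without chow 4) to 1297 (without HFD+1B 5) positive and 264 to 821 negative calls, 376 to 1327 amplified, 75 to 250 blunted, and 216 to 541 reversed probes, 36 to 84 list genes, 721 to 1482 probes for ethanol on chow and 4097 to 7034 on HFD, and an rRNA interaction of 3.75 to 4.31. Median centring gave 1652 positive and 162 negative calls, 1288 amplified, 100 list genes, and 788 for ethanol on chow. Cy5 signals alone gave 273 and 44 calls, 144 amplified, 23 blunted, 150 reversed, 21 list genes, 287 for ethanol on chow and 2153 on HFD, an rRNA interaction of 4.71, and Krt7 at -0.088. The deposited table gave 828 for ethanol on chow and 128 blunted. Slide as a block gave 905 negative calls and array weights 2214 for ethanol on chow. A linear model without moderation gave 334 positive and 269 negative calls, 306 amplified, 70 blunted, 227 reversed, and 30 list genes.

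The replicate block gave 1643 positive and 1262 negative calls, 1854 amplified, 357 blunted, 694 reversed, and 116 list genes. The labels tie no number to a litter or day, and same-numbered arrays correlated at -0.13 to 0.48, so they were not taken as pairs. As a hint from the data, 9 of 16 arrays were closest to one of their own number, and the arrays numbered 1, which share a slide, correlated at 0.24 to 0.48. With a call also requiring 2-fold (log2 of 1), there were 373 positive, 127 negative, 282 amplified, 69 blunted, and 149 reversed probes, and with an unadjusted p instead 524, 180, 422, 120, and 155. Classes by sign were 184, 67, and 1175, and effects at adjusted p left 41 reversed. The rRNA interaction was 4.95 and 1.45 within the slides with all groups.

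With the rRNA covariate limma called 0 interactions (1556 at an unadjusted p of 0.05), 0 probes in any class, 0 list genes, 800 probes for ethanol on chow, and 0 on HFD, and with Rn18s as covariate 0 (1396 unadjusted), 0, 0, 403, and 0. Signs turned for Syvn1 (0.13), Nop2 (0.40), Clec2d (-0.48), Mapk7 (-0.19), Fam187b (0.040), Apob (-0.95), Mapk6 (-0.23), Rpl21 (-0.39), Rmrp (-0.19), Hsf1 (-0.69), and Pim1 (-0.50), and with Rn18s for Nop2 (0.51), Clec2d (-0.53), Mapk7 (-0.33), Fam187b (0.0073), Apob (-1.18), Mapk6 (-0.38), Cyp2a5 (-0.26), Rpl21 (-0.35), Rmrp (-0.30), Hist4h4 (-0.0755), Hsf1 (-0.78), and Pim1 (-0.64). The median of all Hsf1 probes was -0.21, and Nop2 was 0.22 within the second slide. The cause of these changes was not tested beyond the wider SE of the covariate fits. Of 1879 gene values under alternatives with a test, 1507 kept direction and call, 348 lost the call, and 24 reversed. Of 140 values without a test (within a slide, or a median of probes), 138 kept their sign. Called probes were brighter than the rest, and dim signals limit what could be called.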

Other observations

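Further genes of the lists had a called interaction. Kdr, a receptor of vascular endothelial growth factor on sinusoidal endothelium, had 0.46 to 0.63 in the chow group, 0.03 to 0.26 with 1B, 0.49 to 0.85 on HFD alone, and -0.85 to -0.16 on HFD+1B, an interaction of -0.82 ± 0.18 (adjusted p = 0.0205, limma). Rora, a nuclear receptor of the clock, had 1.04 ± 0.15 (adjusted p = 0.0024). Dnaja1, a cochaperone of HSP70, was -0.04 to 0.64 in the other groups and -0.71 to -0.15 in HFD+1B, an interaction of -1.04 ± 0.18 (adjusted p = 0.00733). Hsf1, the heat shock transcription factor, had 1.08 ± 0.26 (adjusted p = 0.0294), lost the call in 8 of 17 fits without an array, and had a median of -0.21 over all its probes. These 2 of 23 genes of the heat shock list were called, in opposite directions, against 4.4% of all genes. Cyp4a31, a fatty acid hydroxylase, was lower after ethanol by -1.78 on chow and -0.85 on HFD, an interaction of 0.94 ± 0.23 (adjusted p = 0.0308), the 1 call of 40 PPAR-alpha targets, lost in 5 of 17 fits without an array. Ifi47, an interferon-induced GTPase, was the 1 call of 38 interferon-stimulated genes, at -1.21 ± 0.26 (adjusted p = 0.0187). The shares called of the PPAR-alpha list (2.5%) and of the interferon list (2.63%) were below the 4.4% of all genes.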
